A study of Mus musculus with 4 samples.

Results

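*Dpep1* and the enzymes that make, convert and inactivate leukotrienes and prostaglandins were examined in mesenchymal stem cells (MSCs) of mice with leukemia. *Dpep1* was the gene of this set with the largest difference, at a mean FPKM of 133 ± 55.1 in leukemia-associated MSCs (L-MSCs) and 9.93 ± 5.34 in control MSCs (SD, n = 2 each), where FPKM counts fragments scaled to transcript length and library size. *Ggt5*, which acts one step earlier, was also higher, while prostacyclin and prostaglandin E synthase (*Ptgis* and *Ptges*) and the sum of both cyclooxygenases overlapped between the groups in the deposited values. The set holds 10 of the 17457 genes listed in the expression table, taken by symbol: *Dpep1*, *Ggt5*, *Ltc4s*, *Alox5ap*, *Ptgs1*, *Ptgs2*, *Ptges*, *Ptgis*, *Ptgds* and *Hpgd*. These genes were chosen on results of the same comparison that is described here, the levels in L-MSCs against control MSCs. Their differences between the groups are therefore a description, and neither their calls nor their counts are independent evidence that the pathway moved.

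L-MSCs came from female C57BL/6J mice, 7 to 9 weeks old when injected, that had received 1000 cells of BCR-ABL1+ acute lymphoblastic leukemia of the B precursor type (B-ALL) through the tail vein and were killed at a high leukemia burden. Control MSCs came from female C57BL/6J mice of the same age range that had received phosphate-buffered saline and were killed at an equivalent time. The leukemia cells were of 1 line, PER-M60, which carries the fusion gene on a retrovirus, in mice with an intact immune system. Each group had 2 libraries, L-MSC replicates 1 and 2 and control replicates 1 and 2, and each library was made from cells pooled from 4 to 7 mice, so that the spread between libraries is not the spread between mice. The marrow was flushed out of the femurs and tibias and discarded, and MSCs were sorted from the digested bone as CD45-, TER119-, CD31-, Sca-1+ and PDGFRα+ cells.

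Arachidonic acid, released from membrane lipids by phospholipases, feeds both branches of this pathway. In the leukotriene branch, 5-lipoxygenase and its activating protein (*Alox5ap*) form leukotriene A4, and leukotriene C4 synthase (*Ltc4s*) joins it to glutathione. Gamma-glutamyltransferases such as *Ggt5* then remove glutamate to give leukotriene D4, and membrane dipeptidases such as *Dpep1* remove glycine to give leukotriene E4. In the prostaglandin branch, the cyclooxygenases (*Ptgs1* and *Ptgs2*) make prostaglandin H2, and *Ptges*, *Ptgis* and *Ptgds* convert it to prostaglandin E2, prostacyclin and prostaglandin D2. *Hpgd* oxidizes prostaglandins to inactive forms. Prostaglandin E2 is known in bone for its actions on cells of the osteoblast lineage and on hematopoietic stem cells.

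The promoters of *Dpep1* and *Ptgs2* are shown because *Dpep1* had the widest gap between groups among the 10 genes and *Ptgs2* is the inducible cyclooxygenase. Both are from RefSeq on GRCm38.p6, 250 bases before to 50 bases after the annotated start. *Dpep1* is read from chr8:123185985-123186284 on the + strand, and its capitals mark the E-box letters CANNTG at positions 21 and 28 after the start. *Ptgs2* is read from chr1:150099781-150100080 on the + strand, and its capitals mark the C/EBP letters TTGCGCAA, at position -69, and the CRE half-site TGACG on the opposite strand at position 14 after the start.
*Dpep1*: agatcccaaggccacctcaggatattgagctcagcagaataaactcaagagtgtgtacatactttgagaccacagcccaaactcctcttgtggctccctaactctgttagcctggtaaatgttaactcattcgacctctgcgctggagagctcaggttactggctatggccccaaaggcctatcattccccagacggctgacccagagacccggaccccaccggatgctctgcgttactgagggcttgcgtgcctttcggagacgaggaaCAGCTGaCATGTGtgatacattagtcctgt
*Ptgs2*: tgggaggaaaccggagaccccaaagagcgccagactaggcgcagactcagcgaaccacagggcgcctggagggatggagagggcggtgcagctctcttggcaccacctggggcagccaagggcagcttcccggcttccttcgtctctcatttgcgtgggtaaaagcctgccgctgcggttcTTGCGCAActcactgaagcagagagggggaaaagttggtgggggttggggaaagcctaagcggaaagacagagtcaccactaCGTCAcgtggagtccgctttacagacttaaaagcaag
Of the 10 genes, 7 were matched in the promoter table (not *Ggt5*, *Alox5ap* or *Ptgis*). Over both strands of all 32851 promoters of this length, CANNTG was in 72.3%, TTGCGCAA in 0.183% and TGACG in 20.8%. The *Ptgs2* half-site overlaps an E-box at position 17, and the C/EBP and half-site letters were searched for only after this sequence had been read. Neither the TATA letters TATAAA (in 13.6% of all promoters) nor TGANTCA (7.81%), TGACGTCA (1.79%), TTCNNNGAA (8.30%) or the NF-kB motif (8.46%) occurred in the *Dpep1* or the *Ptgs2* window. The GC content was 52.7% for *Dpep1* and 59.3% for *Ptgs2*, and the median of all promoters was 52.7%. These matches are a description of the letters in the windows, and no binding was measured.

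FPKM are scaled to transcript length, so that levels can be set side by side between genes. In L-MSCs the highest of the 10 genes were *Ptgis*, at a mean FPKM of 144 ± 5.49 (SD, n = 2), and *Dpep1*, at 133 ± 55.1 (SD, n = 2), and the libraries of these 2 genes overlapped. *Ggt5*, *Ptgs2*, *Ptgs1*, *Ptges* and *Hpgd* followed in that order, at mean FPKM between 19.0 and 8.59. The range of each over the 2 libraries overlapped that of the next, except that the lower *Ptgs1* value was above the higher *Ptges* value. *Alox5ap*, *Ptgds* and *Ltc4s* were lowest in L-MSCs. In control MSCs *Ptgis* stood alone at the top, at a mean FPKM of 171 ± 40.9 (SD, n = 2), and *Ptgs1* came next, at 21.6 ± 5.61 (SD, n = 2), above *Dpep1* in every control library. *Dpep1* and *Ptges* overlapped in control MSCs, as did *Ptges* and *Ptgs2*, and *Ggt5*, *Hpgd* and *Alox5ap* lay below a mean FPKM of 5 and *Ltc4s* and *Ptgds* below 1. Of the FPKM summed over the 10 genes, *Dpep1* held 43.4% and 32.8% in L-MSC replicates 1 and 2, against 6.77% and 2.42% in control replicates 1 and 2. *Ptgis* held 37.3% and 48.8% of that sum in L-MSCs, against 70.3% and 78.6% in control MSCs. The most abundant transcript of the set thus differed between libraries, with *Dpep1* first in L-MSC replicate 1 and *Ptgis* first in the other 3 libraries.

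**Figure D1:**
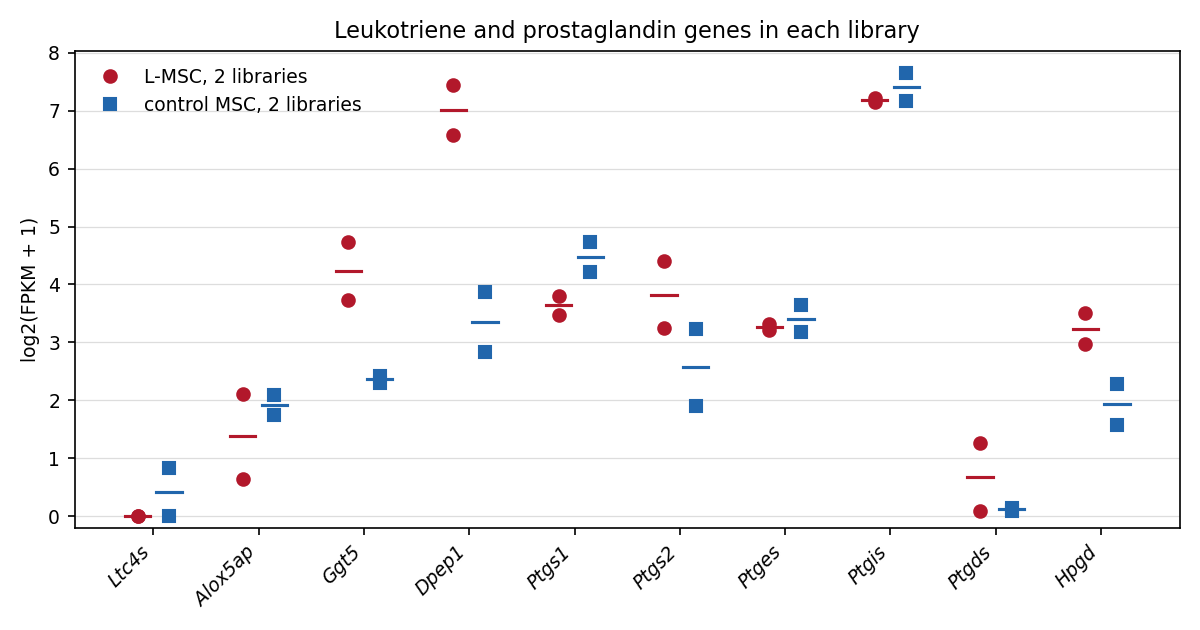
Level of the 10 genes in each library, as log2(FPKM + 1) of the deposited values on the y axis, with L-MSC libraries as circles left of the control libraries as squares and a bar at each group's mean. The *Dpep1* circles, at an FPKM of 172.3 and 94.41, lie far above the squares at 13.7 and 6.15, while the *Ptgis* and *Ptges* symbols of the groups lie close together.

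For the comparison, FPKM were scaled between libraries by the median of ratios and compared as log2(FPKM + 1) with limma, over the 11056 genes that reached an FPKM of 1 in 2 or more libraries. A gene was called when its p, adjusted over all those genes by the Benjamini-Hochberg method, did not exceed 0.05 and its log2 fold change was 1 or more, up or down. Of the 10 genes, 8 passed the filter, and *Ltc4s* and *Ptgds* did not. *Dpep1* and *Ggt5* were called higher in L-MSCs, beside 2.43% of all genes tested, and 0 of the 8 were called lower, beside 2.65% of all genes tested. At an unadjusted p under 0.05 in limma, 4 of the genes were higher and 1, *Ptgs1*, was lower. Of all 11056 genes tested, 2342 had an unadjusted p of at most 0.05 in limma, in either direction. The 2 L-MSC libraries lay above both control libraries for 3 of the 8 genes after scaling (*Dpep1*, *Ggt5* and *Hpgd*), beside 24.8% of all genes tested, and below both for 2 (*Ptgs1* and *Ptgis*), beside 27.2%. Because the genes were chosen on this contrast, nothing is read from these counts. The 8 genes had a median log2 difference of 0.46, beside -0.01 for all genes tested. The smallest p that an exact permutation test allows with 2 libraries per group is 0.333, so the adjusted p-values rest on the spread that limma pooled over genes.

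*Dpep1* (gene ID 13479) encodes a dipeptidase anchored at the cell surface, known from the kidney brush border, that also splits cysteinyl-glycine and other dipeptides. The gene lies on the + strand of chromosome 8, from 123186235 to 123201812 (GRCm38.p6), with 12 exons when those of its annotated transcripts are merged. *Dpep1* had an FPKM of 172.3 and 94.41 in L-MSC replicates 1 and 2, against 13.7 and 6.15 in control replicates 1 and 2. Both L-MSC libraries were high and both control libraries low, and the lower L-MSC library was 6.89 times the higher control library. The mean FPKM in L-MSCs was 13.4 times that in control MSCs. The log2 fold change was 3.55 (standard error, SE, 0.38 and limma adjusted p = 0.00175), the 4th highest of the genes tested. In each library's ranking of genes by FPKM, *Dpep1* stood at 464 and 850 in L-MSCs, against 4041 and 6254 in control MSCs. In both groups replicate 1 was above replicate 2, by 1.83 times in L-MSCs and 2.23 times in control MSCs. No exon of *Dpep1* overlaps another annotated gene, and none of its transcript's stretches of 100 bases occurs in another gene's transcript. The samples are bulk sorted cells, so more cells with *Dpep1* transcripts and more *Dpep1* transcript per cell cannot be told apart.

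Of the related dipeptidases, *Dpep2* had an FPKM of 3.20 and 0.72 in L-MSCs, against 6.46 and 1.16 in control MSCs, with a log2 fold change of -0.64 (limma adjusted p = 0.598). *Dpep3* was listed at 0 in all 4 libraries. *Dpep1* was therefore the most abundant transcript of the dipeptidase family in each library.

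*Ggt5* (gene ID 23887) encodes the gamma-glutamyltransferase that acts on leukotriene C4, one step before the dipeptidase. It lies on the + strand of chromosome 10, from 75589327 to 75617200, with 9 merged exons. *Ggt5* had an FPKM of 25.72 and 12.35 in L-MSCs, against 4.35 and 3.93 in control MSCs. The control libraries were close to each other, the L-MSC libraries lay apart, and the lower of these was 2.84 times the higher control library. The mean FPKM was 19.0 ± 9.45 in L-MSCs and 4.14 ± 0.297 in control MSCs (SD, n = 2 each). The log2 fold change was 1.79 (SE 0.35, limma adjusted p = 0.0202). Without L-MSC replicate 1 the log2 fold change was 1.26 and the call was lost (limma adjusted p = 0.0661), and it was also lost without the variance trend (adjusted p = 0.0517). Of the other transferases, *Ggt1*, the form known from the kidney, was listed at 0 in all 4 libraries. *Ggt7* had an FPKM of 11.09 and 2.66 in L-MSCs, against 2.68 and 2.24 in control MSCs (limma adjusted p = 0.359). The *Ggt7* log2 fold change was 1.74 without L-MSC replicate 2 and -0.0095 without L-MSC replicate 1. The FPKM of *Dpep1* divided by that of *Ggt5* was 6.70 and 7.64 in L-MSCs, against 3.15 and 1.56 in control MSCs, so that *Dpep1* differed by more than *Ggt5* did.

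*Alox5ap*, *Ltc4s* and *Alox5*, genes of the earlier leukotriene steps, were at or below an FPKM of 3.34 in every library. *Alox5ap* (gene ID 11690, chromosome 5, 149265004 to 149288153, + strand) had an FPKM of 0.57 and 3.34 in L-MSCs, against 3.25 and 2.37 in control MSCs. The groups overlapped, with L-MSC replicate 1 the lowest and the other 3 libraries between 2.37 and 3.34. The log2 fold change was -0.61 (SE 0.46, limma adjusted p = 0.503), and without L-MSC replicate 1 it was 0.10. *Ltc4s* (gene ID 17001, chromosome 11, 50236461 to 50238532, - strand) was listed at 0 in both L-MSC libraries, against 0.78 and 0 in control MSCs. *Alox5*, the 5-lipoxygenase itself, had an FPKM of 1.11 and 0 in L-MSCs, against 0.74 and 0.04 in control MSCs, and did not pass the filter. *Mgst2*, which can also make leukotriene C4, stayed at or below an FPKM of 0.45 in every library. *Mgst3*, a related transferase for which the same activity is known from the human enzyme, was far higher, at 27.27 and 37.27 in L-MSCs, against 99.00 and 80.31 in control MSCs. In all 4 libraries *Dpep1* and *Ggt5*, which act after leukotriene C4, were above *Alox5ap*, *Alox5*, *Ltc4s* and *Mgst2*, while *Mgst3* was above *Ggt5* in all 4. The library kit does not mark strand, and 26.4% of the exonic bases of *Ltc4s* and 13.3% of those of *Alox5ap* lie opposite another gene, so reads of those pairs cannot be told apart. The same limit holds for 6.08% of the exonic bases of *Ptgis* and 3.81% of those of *Ptgs1*. Leukotriene enzymes are typical of blood cells, so 12 leukocyte markers were examined. *Ptprc* encodes CD45, which the sort selected against, and was at most 0.02 in every library. With *Ptprc*, 8 of these markers stayed under an FPKM of 1 in each library. Of the 4 tested, 0 were called by limma (1 higher and 1 lower at an unadjusted p under 0.05). *Lyz2* had an FPKM of 7.87 and 5.72 in L-MSCs, against 11.81 and 18.1 in control MSCs. *Cd68* had 12.56 and 4.35 in L-MSCs, against 2.53 and 2.79 in control MSCs. *Fcer1g* (8.27 and 1.12 against 2.06 and 0.07) and *Coro1a* (4.88 and 0.55 against 1.47 and 0.64) were highest in L-MSC replicate 1. The summed FPKM of the 12 leukocyte markers was 34.46 and 12.75 in L-MSCs, against 18.0 and 22.46 in control MSCs. The part of leukocytes in the *Alox5ap* values was not tested. The 4 mast cell and basophil markers listed summed to 0.01 and 0.11 in L-MSCs, against 0.43 and 0.05 in control MSCs, and their part in the *Ltc4s* value of control replicate 1 was not tested.

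**Figure D2:**
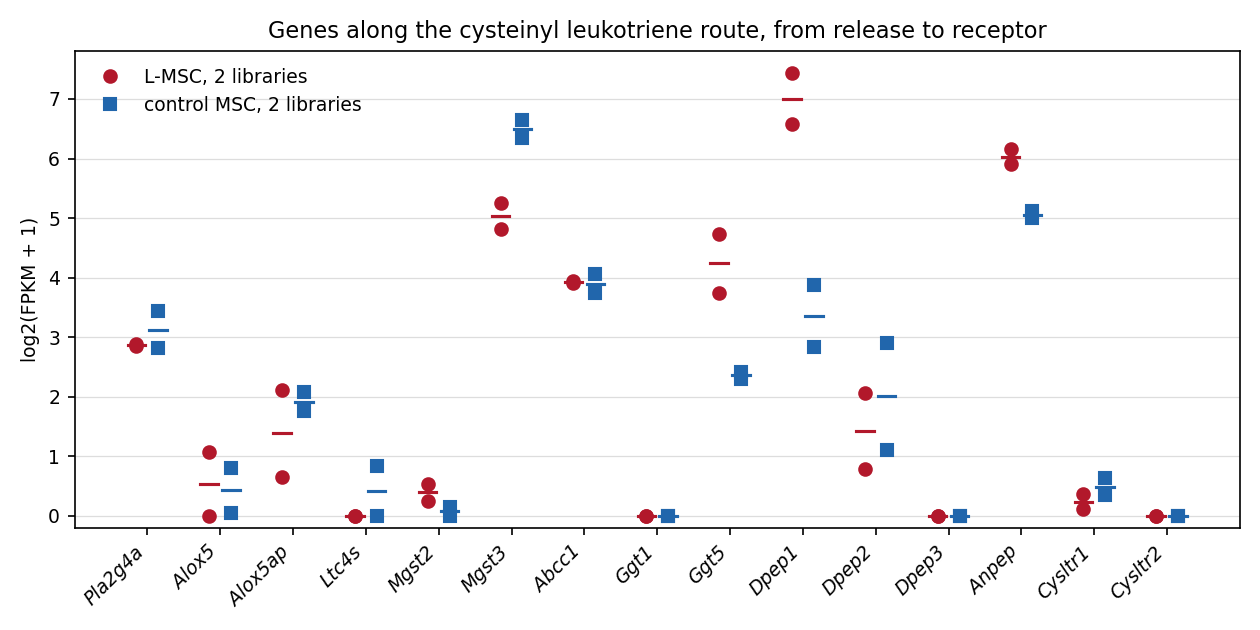
Level of 15 genes along the cysteinyl leukotriene route in each library, as log2(FPKM + 1) of the deposited values on the y axis, ordered from arachidonate release at the left to the receptors at the right, with L-MSC libraries as circles left of the control libraries as squares and a bar at each group's mean. *Alox5*, *Ltc4s* and *Mgst2* stay at or below an FPKM of 1.11 in every library, *Ggt5*, *Dpep1* and *Anpep* lie higher and *Mgst3* lower in L-MSCs, and the receptors *Cysltr1* and *Cysltr2* lie at or near 0.

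*Ptgs1* (gene ID 19224), the constitutive cyclooxygenase, lies on the + strand of chromosome 2, from 36216742 to 36258593, with 11 merged exons. *Ptgs1* had an FPKM of 10.06 and 13 in L-MSCs, against 17.67 and 25.60 in control MSCs. The groups did not overlap, and the L-MSC libraries were the lower. Its log2 fold change was -0.94 (SE 0.27) and missed the threshold (limma adjusted p = 0.0792). The log2 fold change was -1.09 without L-MSC replicate 2 and -1.19 without control replicate 1. It was -0.79 without L-MSC replicate 1 and -0.71 without control replicate 2. *Ptgs1* is also a platelet enzyme, and the 6 markers of megakaryocytes and platelets summed to an FPKM of 2.41 and 4.97 in L-MSCs, against 13.27 and 10.31 in control MSCs. Of these markers 4 were tested and 2 were called lower in L-MSCs, beside 2.65% of all genes tested. These were *Pf4*, at an FPKM of 0 and 0 in L-MSCs against 2.42 and 1.38 in control MSCs, and *Ppbp*, at 0 and 0.53 in L-MSCs against 5.15 and 3.20 in control MSCs. *Itga2b* (log2 fold change -1.02) and *Gp1bb* (0.04) were not called, and *Gp9* and *Gp1ba* did not pass the filter. All these markers were at or below an FPKM of 5.15 in every library. The part of such cells in the *Ptgs1* values was not tested.

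*Ptgs2* (gene ID 19225), the inducible cyclooxygenase, lies on the + strand of chromosome 1, from 150100031 to 150108234, with 11 merged exons. *Ptgs2* had an FPKM of 20.07 and 8.48 in L-MSCs, against 8.44 and 2.74 in control MSCs. L-MSC replicate 2 and control replicate 1 were nearly equal, and after scaling the groups overlapped. The log2 fold change was 1.16 (SE 0.49) and missed the threshold (limma adjusted p = 0.208). It was called higher without L-MSC replicate 2 (log2 fold change 1.75, adjusted p = 0.0133) and without control replicate 1 (1.84, adjusted p = 0.0151), while without L-MSC replicate 1 it was 0.56 (adjusted p = 0.672) and without control replicate 2 it was 0.46 (adjusted p = 0.655). Replicate 1 was above replicate 2 in both groups, by 2.37 times in L-MSCs and 3.08 times in control MSCs. *Ptgs2* belongs with genes that cells switch on soon after a stimulus. Of 29 such immediate-early genes tested, 26 were higher in L-MSC replicate 1 than in L-MSC replicate 2. In control MSCs 28 were higher in replicate 1 than in replicate 2. The share of all genes tested that was higher in replicate 1 was not computed, so nothing is read from these counts. Of these 29 genes 5 were called, all higher in L-MSCs, beside 2.43% of all genes tested. Their log2 fold changes had a median of 0.83 and a range of -0.56 to 1.99. Their part in the *Ptgs2* values was not tested. The FPKM of *Ptgs2* divided by that of *Ptgs1* was 2.00 and 0.652 in L-MSCs, against 0.478 and 0.107 in control MSCs, and the groups did not overlap in this ratio. How often the ratio of other gene pairs separates the groups was not computed, so nothing is read from this. The sum of both cyclooxygenases was 30.13 and 21.48 in L-MSCs, against 26.11 and 28.34 in control MSCs, and overlapped.

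The terminal synthases gave no call. *Ptgis* (gene ID 19223, chromosome 2, 167203194 to 167252150, - strand), prostacyclin synthase, had an FPKM of 148.27 and 140.50 in L-MSCs, against 142.32 and 200.11 in control MSCs. The deposited values overlapped, and the higher control library alone stood apart. After scaling both L-MSC libraries were below both control libraries, at 145 and 134 against 149 and 206. Its log2 fold change was -0.33 (SE 0.22, limma adjusted p = 0.447). *Ptges* (gene ID 64292, chromosome 2, 30889471 to 30931020, - strand), the inducible prostaglandin E synthase, had an FPKM of 8.27 and 9.01 in L-MSCs, against 8.01 and 11.54 in control MSCs. The groups overlapped, with a log2 fold change of -0.23 (SE 0.28, limma adjusted p = 0.693). The FPKM of *Ptgis* divided by that of *Ptges* varied little, at 17.9 and 15.6 in L-MSCs, against 17.8 and 17.3 in control MSCs. *Ptgds* (gene ID 19215, chromosome 2, 25466709 to 25470110, - strand), the lipocalin-type prostaglandin D synthase, had an FPKM of 1.41 and 0.07 in L-MSCs, against 0.07 and 0.10 in control MSCs, and only L-MSC replicate 1 was above an FPKM of 1.

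*Hpgd* (gene ID 15446), the hydroxyprostaglandin dehydrogenase that starts the breakdown of prostaglandins, lies on the + strand of chromosome 8, from 56294552 to 56321046, with 7 merged exons. *Hpgd* had an FPKM of 10.37 and 6.81 in L-MSCs, against 3.89 and 1.99 in control MSCs. Both L-MSC libraries were above both control libraries. Its log2 fold change was 1.22 (SE 0.36) and missed the threshold (limma adjusted p = 0.0855). The log2 fold change was 1.50 without L-MSC replicate 2 and 1.58 without control replicate 1. It was 0.92 without L-MSC replicate 1 and 0.84 without control replicate 2. The FPKM of *Hpgd* divided by that of *Ptges* was 1.25 and 0.756 in L-MSCs, against 0.486 and 0.172 in control MSCs, without overlap. Nothing is read from this either, as other gene pairs were not compared. *Slco2a1*, which encodes the transporter that takes prostaglandins into the cell, had an FPKM of 12.91 and 11.03 in L-MSCs, against 5.17 and 9.32 in control MSCs, and its log2 fold change of 0.61 missed the threshold (limma adjusted p = 0.306).

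Within the groups, the replicates of several of these genes differed in the same direction. *Dpep1*, *Ggt5*, *Ptgs2* and *Hpgd*, the 4 genes with a positive log2 fold change, were all higher in replicate 1 than in replicate 2 in both groups, and *Ptgs1* and *Ptges* were lower in replicate 1 in both. *Alox5ap* and *Ptgis* did not follow either pattern. The share of all genes tested with either pattern was not computed, so nothing is read from this.

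Of 68 other genes of the pathway in the table, listed by their known roles, 39 were tested. Of these, 1 was called higher and 3 lower in L-MSCs, beside 2.43% and 2.65% of all genes tested, and their median on the log2 scale was -0.07. Among 11 tested leukotriene and lipoxygenase enzymes, *Mgst1*, a microsomal glutathione transferase, had an FPKM of 245.06 and 200.05 in L-MSCs, against 80.60 and 98.88 in control MSCs, and rose (log2 fold change 1.2, limma adjusted p = 0.0140). The *Mgst1* call was lost without L-MSC replicate 1 (log2 fold change 1.03, limma adjusted p = 0.0540) and without the variance trend (adjusted p = 0.0665). *Mgst3*, with the levels given above, fell (log2 fold change -1.56, limma adjusted p = 0.00668). These 2 transferases of 1 family thus differed in opposite directions, each without overlap between the groups. *Anpep*, which encodes aminopeptidase N, had an FPKM of 70.08 and 59.14 in L-MSCs, against 31.20 and 33.55 in control MSCs, with a log2 fold change of 0.87 that was under the fold threshold (limma adjusted p = 0.0465). With 1 library left out, the *Anpep* log2 fold change ranged from 0.72 (without L-MSC replicate 1) to 1.01 (without L-MSC replicate 2). *Lta4h*, which makes leukotriene B4, had an FPKM of 56.24 and 42.30 in L-MSCs, against 41.03 and 46.83 in control MSCs, and *Abcc1*, which exports leukotriene C4, had 13.96 and 14.43 in L-MSCs, against 12.35 and 15.63 in control MSCs. The groups overlapped for *Lta4h* and for *Abcc1*.

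Of 12 tested genes for arachidonate release 1 was called, and lower in L-MSCs. That gene was *Mgll*, the monoacylglycerol lipase, which had an FPKM of 14.03 and 16.88 in L-MSCs, against 24.79 and 39.10 in control MSCs (log2 fold change -1.07, limma adjusted p = 0.0480). The *Mgll* call was lost without L-MSC replicate 1 (limma adjusted p = 0.132) and without control replicate 2 (limma adjusted p = 0.211), and in 9 of 14 alternatives in all. *Pla2g2e*, a secreted phospholipase, had an FPKM of 20.39 and 17.32 in L-MSCs, against 28.93 and 33.45 in control MSCs, which missed the threshold (limma adjusted p = 0.0835). *Pla2g15*, the lysosomal phospholipase, had an FPKM of 29.24 and 20.20 in L-MSCs, against 17.05 and 21.57 in control MSCs, and overlapped. *Pla2g4a*, the cytosolic phospholipase that releases arachidonate, had an FPKM of 6.39 and 6.22 in L-MSCs, against 6.04 and 9.82 in control MSCs. These deposited values overlapped, after scaling both L-MSC libraries were below both control libraries, and the threshold was missed (limma adjusted p = 0.578).

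Of 9 tested genes for other prostanoid synthases and reductases, 0 were called by limma in either direction, and 0 had an unadjusted p under 0.05. *Ptges3*, the cytosolic prostaglandin E synthase, had an FPKM of 53.07 and 56.62 in L-MSCs, against 53.51 and 67.65 in control MSCs. *Akr1b3* had an FPKM of 60.21 and 40.76 in L-MSCs, against 46.90 and 61.23 in control MSCs, and *Akr1b8* had 27.93 and 26.86 in L-MSCs, against 22.50 and 27.05 in control MSCs. Both encode aldo-keto reductases. The adjusted p of these 3 genes was between 0.594 and 0.935 (limma).

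Of 7 tested genes of the prostanoid receptor list 1 was called, and lower in L-MSCs. That gene was *Ptgfrn*, whose product binds the prostaglandin F receptor and is not itself a receptor for prostaglandins, at an FPKM of 3.84 and 4.19 in L-MSCs, against 9.20 and 9.95 in control MSCs (log2 fold change -1.16, limma adjusted p = 0.0417). The *Ptgfrn* call was lost without L-MSC replicate 1, control replicate 1 or control replicate 2 (limma adjusted p = 0.0932, 0.105 and 0.152), and in 7 of 14 alternatives in all. *Ptgir*, the prostacyclin receptor, had an FPKM of 11.34 and 11.14 in L-MSCs, against 6.46 and 11.82 in control MSCs. *Ptger4*, a prostaglandin E2 receptor, had an FPKM of 10.78 and 6.74 in L-MSCs, against 3 and 3.18 in control MSCs. Its log2 fold change of 1.14 missed the threshold (limma adjusted p = 0.0746). With 1 library left out, it ranged from 0.81 (without L-MSC replicate 1) to 1.46 (without L-MSC replicate 2). *Ptger1*, also a prostaglandin E2 receptor, had an FPKM of 7.79 and 3.92 in L-MSCs, against 10.41 and 8.61 in control MSCs, and *Ptgfr*, the prostaglandin F receptor, had 8.04 and 9.27 in L-MSCs, against 6.85 and 7.59 in control MSCs. Both missed the threshold (limma adjusted p = 0.239 and 0.819). All 6 leukotriene receptor genes were below an FPKM of 1 in every library, and *Cysltr2*, *Oxgr1* and *Ltb4r2* were listed at 0 in all. *Cysltr1*, the receptor for leukotriene D4, had an FPKM of 0.08 and 0.29 in L-MSCs, against 0.56 and 0.27 in control MSCs. *Ltb4r1*, the leukotriene B4 receptor, had 0.66 and 0.60 in L-MSCs, against 0.13 and 0 in control MSCs, and *Gpr17* was at most 0.13 in every library.

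**Figure D3:**
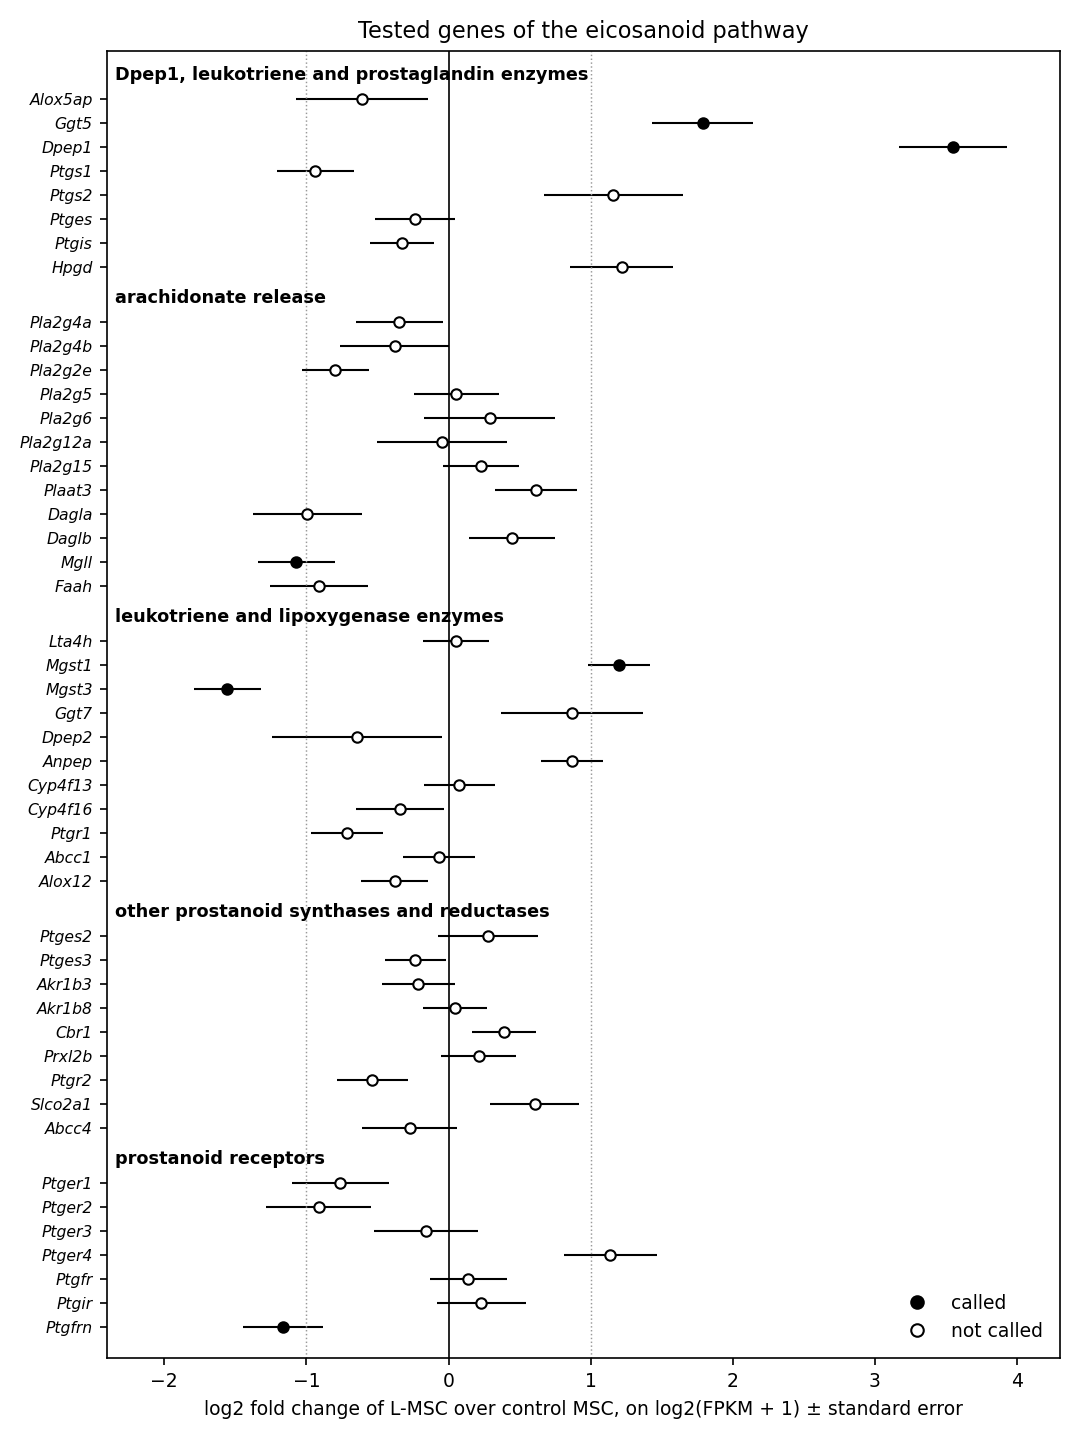
Log2 fold change of L-MSCs over control MSCs on log2(FPKM + 1) (x axis) with its standard error (horizontal line), for the 8 tested genes of the set and the 39 other tested genes of the pathway (rows, grouped by role), where filled points are called, open points are not, and dotted lines mark the fold threshold of 1. *Dpep1*, at 3.55, and *Ggt5*, at 1.79, lie farthest to the right, and the other called genes are *Mgst1* to the right and *Mgst3*, *Ptgfrn* and *Mgll* to the left.

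The 5 genes whose profile over the 4 libraries was nearest to that of *Dpep1*, by Euclidean distance on scaled log2(FPKM + 1) less each gene's mean among 7592 genes, were *Angptl4*, *Inmt*, *Mmp11*, *Kng2* and *Slc10a6*. The nearest was *Angptl4*, which encodes a secreted inhibitor of lipoprotein lipase, at a distance of 0.231 and an FPKM of 296.93 and 161.5 in L-MSCs, against 28.57 and 13.27 in control MSCs. *Inmt*, an indolethylamine methyltransferase gene, had 301.28 and 242.19 in L-MSCs, against 29.97 and 10.32 in control MSCs. The others were at distances of 0.811 to 0.984. The 3 genes nearest to *Ptgs2* were *Nr4a1*, *Ctsc* and *Rnf19b*. *Nr4a1*, an immediate-early gene of the nuclear receptor family, was at a distance of 0.107, with an FPKM of 393.53 and 194.97 in L-MSCs, against 177.26 and 72.31 in control MSCs. *Ctsc*, which encodes the protease cathepsin C, had 12.95 and 6.03 in L-MSCs, against 4.96 and 1.42 in control MSCs. With 4 libraries many genes share a profile, and these neighbors are a description.

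**Figure D4:**
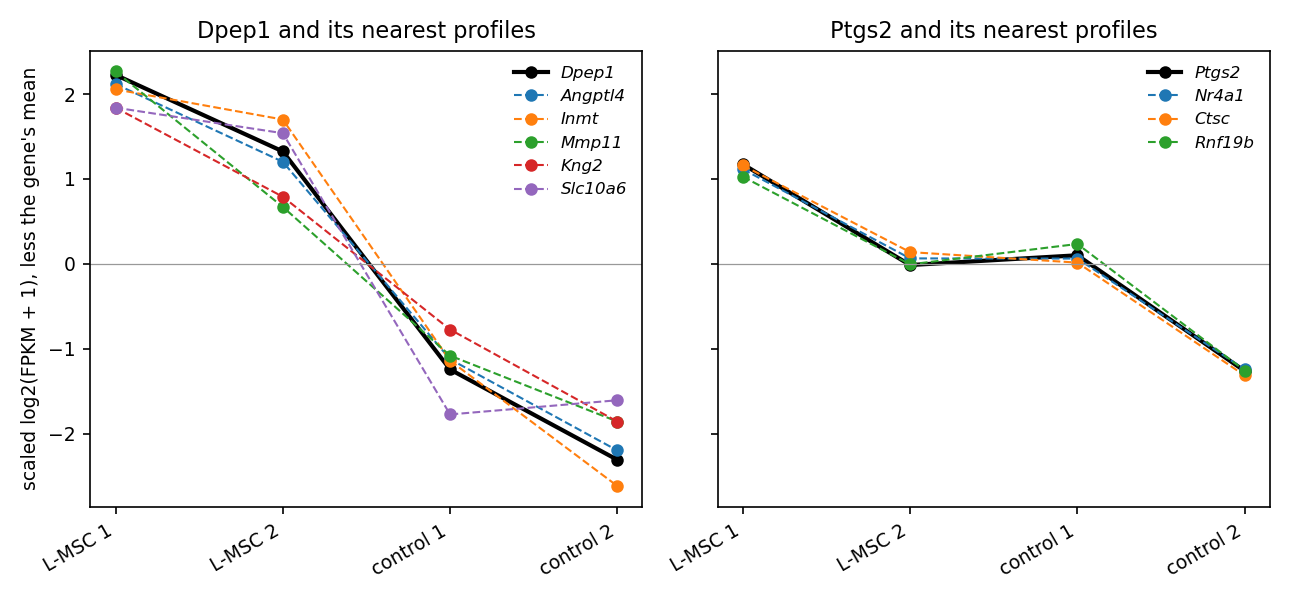
Profiles over the 4 libraries (x axis) of *Dpep1* with its 5 nearest genes at the left and of *Ptgs2* with its 3 nearest genes at the right, as scaled log2(FPKM + 1) less each gene's own mean (y axis), where black lines are *Dpep1* and *Ptgs2* and dashed lines their neighbors. *Dpep1* and its neighbors fall into high L-MSC and low control libraries, while *Ptgs2* and its neighbors are highest in L-MSC replicate 1, lowest in control replicate 2 and nearly level in L-MSC replicate 2 and control replicate 1.

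Across the libraries, the summed FPKM was between 559601 and 588926, and 13623 to 14704 genes were above 0. Of all genes tested 269 were called higher and 293 lower, and without scaling between libraries, which put the median log2 fold change of all genes at 0.08, 301 were called higher and 194 lower, while *Dpep1* and *Ggt5* were called in both fits. The sorted antigens were abundant: *Ly6a* (Sca-1) had an FPKM of 1702.3 and 1985.06 in L-MSCs, against 1055.84 and 1711.45 in control MSCs, and *Pdgfra* had 87.12 and 92.95 in L-MSCs, against 66.84 and 72.65 in control MSCs. Genes of other marker lists also differed between the groups, beside 2.43% of all genes tested called higher and 2.65% called lower. Of 5 markers of marrow reticular cells 2 were called higher in L-MSCs (*Lepr* and *Cxcl12*). *Kitl*, *Adipoq* and *Foxc1* were not called, and after scaling the groups overlapped for *Adipoq* and *Foxc1*. The list summed to an FPKM of 983.47 and 662.07 in L-MSCs, against 308.32 and 299.51 in control MSCs. Most of that sum was *Cxcl12*, at 889.42 and 547.15 in L-MSCs, against 261.12 and 258.11 in control MSCs. Of 6 tendon markers 3 were called lower, and the list summed to 1656 and 3446 in L-MSCs, against 5830 and 7520 in control MSCs. All 4 tested erythroid markers were called lower, and the list summed to 10.1 and 6.26 in L-MSCs, against 238.71 and 149.75 in control MSCs. Of 5 tested markers each, 1 osteoblast and 1 chondrocyte marker were called lower. Of the endothelial list 0 of 2 tested genes were called by limma (0 at an unadjusted p under 0.05), and of the neutrophil list 0 of 3 (1 at an unadjusted p under 0.05, lower). The B lineage list summed to 6.54 and 1.90 in L-MSCs, against 2.07 and 2.06 in control MSCs. This sum was highest in L-MSC replicate 1, where *Dpep1* and *Ptgs2* were also highest, and lowest in L-MSC replicate 2. Of its 7 genes 1 was tested, and 0 were called by limma. The part of these cell types in the values of *Dpep1* and the other enzymes was not tested.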

How the data were processed

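RNA from 2 L-MSC and 2 control MSC libraries was amplified with a SMART-Seq v4 kit and sequenced at BGI. The authors filtered reads with SOAPnuke, aligned them, per the submitters' processing notes, with HISAT2 2.0.4 and Bowtie2 2.2.5 against GRCm38.p6, and calculated FPKM with RSEM 1.2.8. The deposited FPKM are rounded to 2 decimals. The deposited log2 column holds the authors' own comparison and was not used. Reads per library are not in the table, so no counting interval was computed, and the low values do not resolve single reads.

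FPKM were divided by median-of-ratios factors (1.02 and 1.05 for L-MSCs, 0.957 and 0.973 for control MSCs), a pseudocount of 1 was added, and limma 3.58.1 in R 4.3.3 (lmFit, eBayes with trend) was fitted over all genes passing the filter. The fit was tested on simulated data. DESeq2, which the authors used on counts, could not be run on FPKM.

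The 10 genes and all lists were chosen with earlier results of these data known. Named genes were the 10, every called gene and the 3 most abundant of each other pathway list, and the nearest profiles of *Dpep1* and *Ptgs2*; *Abcc1*, *Alox5*, *Dpep2*, *Dpep3*, *Ggt1*, *Ggt7*, *Lta4h*, *Mgst2*, *Pla2g4a*, *Ptger4*, *Slco2a1*, *Oxgr1*, *Cysltr2* and *Ltb4r2* and the markers were named after their values were seen. Gene identifiers were matched to RefSeq for 17406 of the 17457 genes, and exons were taken from the GENCODE annotation of the same assembly.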

Additional observations from a re-analysis of the deposited data

How the results depend on the processing

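Each alternative changed 1 choice: the scaling, the pseudocount, the filter, a fit without variance trend or with robust variances, a replicate block, the fold threshold, or 1 library left out, where the lone library was assumed to vary like the other group. *Dpep1* kept its call in 13 of 14 alternatives, with log2 fold changes of 3.0 to 4.08, and lost it with no filter (3.55, adjusted p = 0.164 from limma). With no filter 15785 genes were tested and 0 were called by limma, in either direction, while 2355 had an unadjusted p of at most 0.05 (2342 of 11056 with the filter); 0 of the 10 genes and 0 other pathway genes were then called. Without the variance trend 276 genes were called in all, 148 higher and 128 lower, among them 1 of the 10 genes (*Dpep1*) and 1 other pathway gene (*Mgst3*), against 562 in all as reported. Without scaling 194 genes were called lower and with TPM 182, and 2 other pathway genes were called in each, against 4 as reported. Leaving out 1 library gave 394 to 982 called genes, 192 to 436 higher and 196 to 546 lower, 1 to 4 of the 10 genes higher and 0 to 1 lower, and 1 to 7 other pathway genes. For *Alox5ap* the log2 fold change ranged from -1.31 to 0.10 when 1 library was left out, and was above 0 without L-MSC replicate 1. Among the other pathway genes named, none of them called as reported, the range with 1 library left out spanned 0 for *Lta4h* (-0.18 to 0.27), *Abcc1* (-0.22 to 0.064), *Ggt7* (-0.0095 to 1.74), *Dpep2* (-1.57 to 0.26), *Pla2g15* (-0.053 to 0.50), *Akr1b3* (-0.51 to 0.084), *Akr1b8* (-0.076 to 0.15) and *Ptgir* (-0.16 to 0.60), and *Abcc1* was at 0.028 without scaling. The cause was not tested. The log2 fold changes of the other tested genes of the 10 kept their sign in all alternatives.

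The labels number the replicates 1 and 2 in both groups but do not say that a number marks a shared animal, litter or day, and the deviations of the 2 libraries numbered 1 from their group means had a Pearson correlation of 0.10 over 11056 genes. With the replicate block 947 genes were called in all, 509 of them higher, and 4 of the 10 genes were called higher (*Dpep1*, *Ggt5*, *Ptgs2* and *Hpgd*). The block uses up a further degree of freedom of 4 libraries, so these calls rest mainly on the spread pooled over genes. *Dpep1* then had a limma adjusted p of 3.3e-41, against 0.00175 as reported, which so few libraries cannot bear out. Calls added by the block are therefore not read as recovered differences. The block changed no call among the other pathway genes except that *Ptger4* was added.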
